A study of Mus musculus with 2 samples.

Results

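The genes described here build caveolae, the small flask-shaped pits of the plasma membrane, and were compared between luminal mammary epithelial cells with high and with low activity of the Tbx3 promoter. The list holds 8 genes, namely the caveolins Cav1, Cav2 and Cav3, the coat genes Cavin1 (also written Ptrf), Cavin2 (Sdpr) and Cavin3 (Prkcdbp), and the genes Ehd2 and Pacsin2, whose proteins bind and bend the membrane around the pit. The list was chosen by earlier results of this same comparison, in which Cav1 and Cav2 were higher in the cells with high promoter activity, so the differences below describe the genes and test nothing. Of the 8 genes, 5 had a probe set annotated to them alone, 11 probe sets in all, among 13869 genes with such a probe set in the table. Cavin2, Cavin3 and Pacsin2 had none among these rows and were not analysed here.

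The study followed Tbx3, a T-box transcription factor, through a fluorescent reporter to find out which luminal cells express it and which genes accompany it. Cells came from Tbx3+/Venus knock-in mice on an FVB background, in which the yellow fluorescent protein Venus was placed at the start codon of Tbx3, so that both populations carried 1 Tbx3 allele that makes no Tbx3. Glands of 3 adult virgin females, 5 months old, were pooled, dead cells, CD45+ cells and stromal cells were gated away, and luminal cells were recognised by CD24 and CD49f. From that gate 200000 cells with high Venus fluorescence (luminal Venus High) and 200000 with low or no fluorescence (luminal Venus Low) were sorted, and 250 ng of RNA from each was labelled for 1 Affymetrix mouse genome expression array. Both RNA samples had an RNA integrity number above 9.4. With 1 array per population and the same 3 animals pooled in both, there were no replicates, the spread between animals is unknown, and no difference below carries a test or an error from replicates.

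The 2 arrays were given as log2 signals of 29338 probe sets, each a group of short probes for 1 transcript region. Of these, 12968 were higher on the Venus High array, 16370 sat at the same lowest value (a signal of 10, called the floor here) on both arrays, and 0 were lower on the Venus High array. A difference could therefore only be 0 or above, and a gene lower in Venus High cells was not analysed here. The luminal markers Krt8, a simple epithelial keratin (13.22 in Venus High, 13.13 in Venus Low), and Cdh1, which encodes E-cadherin (12.03 and 11.84), had strong signals on both arrays. So did the other luminal markers in the table, with larger differences: Krt19 (12.94 and 11.96, a difference of 0.98) and Cd24a (13.17 and 12.39, 0.78). Tbx3 itself read 8.72 in Venus High cells against 3.62 in Venus Low cells, which is the direction of the sort.

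Caveolae form where caveolins, hairpin-shaped proteins that insert into the inner leaflet and bind cholesterol, assemble and a coat of cavin proteins settles on them. Caveolin-1 is required for caveolae in most non-muscle tissues, caveolin-2 associates with it, and caveolin-3 is the muscle form. Cavin-1 is needed for the pit to form, EHD2 is an ATPase held at its neck that keeps it at the surface, and pacsin-2 is a curved membrane-binding protein. Caveolae are most abundant in adipocytes, endothelium and muscle, and in the mammary gland caveolin-1 is known as a restraint on growth signalling and on prolactin signalling.

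The upstream sequences of the 3 caveolar genes with a clear signal are shown because Cav1 and Cav2 lie next to each other on chromosome 6 and both had a large difference. Each is the 250 bases before a transcription start, read 5′ to 3′ in the direction of the gene, from RefSeq on build GRCm38.p6. Capitals mark matches, on either strand, to 8 motifs: the T-box half-site GGTGTGA, the forkhead site TGTTTAC, the estrogen receptor half-site AGGTCA, the AP-1 site TGANTCA, the GC box GGGCGG, the CCAAT box, the TATA box TATAAA, and the full estrogen response element, which is GGTCA followed after 3 bases by TGACC and can overlap the half-site. The Cav1 window is chr6:17306085-17306334 on the + strand, the Cav2 window chr6:17280935-17281184 on the + strand and the Cavin1 window chr11:100970618-100970867 on the - strand.
Cav1: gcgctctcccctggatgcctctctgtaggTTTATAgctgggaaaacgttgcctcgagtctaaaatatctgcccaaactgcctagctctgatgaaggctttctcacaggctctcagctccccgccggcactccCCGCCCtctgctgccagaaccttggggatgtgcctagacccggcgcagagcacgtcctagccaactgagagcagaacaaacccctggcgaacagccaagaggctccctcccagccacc
Cav2: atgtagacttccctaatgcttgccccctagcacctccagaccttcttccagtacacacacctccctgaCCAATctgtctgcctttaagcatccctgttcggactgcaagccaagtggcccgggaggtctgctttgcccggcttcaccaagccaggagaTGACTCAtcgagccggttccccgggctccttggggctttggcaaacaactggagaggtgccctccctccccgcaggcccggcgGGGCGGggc
Cavin1: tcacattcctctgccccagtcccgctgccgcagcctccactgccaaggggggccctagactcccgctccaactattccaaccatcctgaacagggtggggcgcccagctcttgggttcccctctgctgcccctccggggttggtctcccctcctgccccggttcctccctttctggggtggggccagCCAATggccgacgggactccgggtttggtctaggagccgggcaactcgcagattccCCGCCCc

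The Cav2 window held an AP-1 match from 92 to 86 bases before the start, a motif in 6.75% of the 32851 promoter windows of the table. It also held a CCAAT box 182 to 178 bases before the start and a GC box 9 to 4 bases before it. The Cav1 window held a GC box 118 to 113 bases before the start and the TATA letters, on the opposite strand, 221 to 216 bases before it. The printed Cavin1 window held a CCAAT box from 63 to 59 and a GC box from 7 to 2 bases before the start. Cavin1 has another annotated start close by, not printed, with the same CCAAT box from 65 to 61 and GC box from 9 to 4 bases before it. GC boxes and CCAAT boxes are common letters, found in 32.7% and 33.8% of all windows, and the TATA letters in 12.4%.

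Cav1 and Cav2 thus had no motif of the 8 in common other than the GC box. None of the 3 printed windows held the T-box half-site (3.33% of all windows), the forkhead site (3.17%), the estrogen receptor half-site (14.0%) or the full estrogen response element (0.0639%). Their GC content was 59.6% for Cav1, 62.0% for Cav2 and 67.6% for Cavin1, against a median of 52.4% over all windows. Cav1 has a second annotated start, 1305 bases downstream of the first, and its window held none of the 8 motifs. The start of Cav2 lies 25150 bases before the first Cav1 start on the same strand.

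Cav1, the scaffold caveolin, read 10.30 (a signal of 1265) in Venus High cells against 6.90 (119) in the Venus Low population on its only probe set, 1449145_a_at. Its log2 difference was 3.41, a 10.6-fold higher signal in Venus High cells. The Venus Low signal stood well above the floor, so Cav1 was measured in both populations and the fold is not a bound. As these are bulk populations, fewer Cav1-positive cells and less Cav1 RNA per cell in the Venus Low population cannot be told apart.

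Cav2, the partner of Cav1, read 10.91 (1928) in Venus High cells against 8.50 (362) in Venus Low cells on probe set 1417327_at. The difference was 2.41 on the log2 scale, or 5.33-fold. Its other probe set, 1425955_at, read 4.26 (19.2) and 4.03 (16.3), near the floor on both arrays, so the Cav2 difference rests on 1 probe set. The difference was thus larger for Cav1 than for Cav2. For scale, differences were compared between probe sets of the same gene that reached a signal of 100. Their SD was 0.31 over 1062 genes, which measures disagreement between probe sets and not between animals. It leaves out dimmer probe sets, such as 1425955_at of Cav2 with a difference of 0.23. Neither Cav1 nor Cav2 had more than 1 probe set that reached 100, so the SD does not cover them.

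Cav3, the muscle caveolin, lay at the floor on both arrays with its only probe set, 1418413_at, so it had no measured level in either luminal population.

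**Figure D1:**
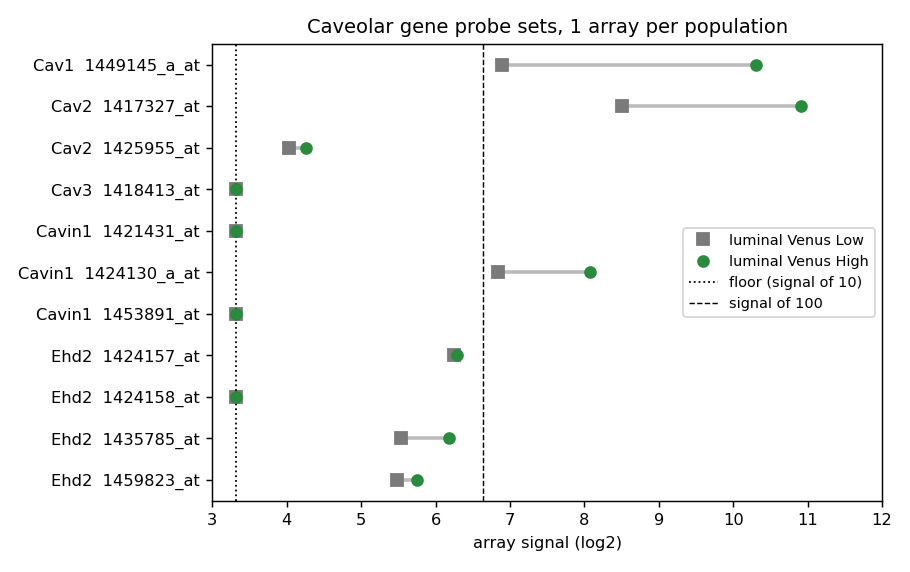
Array signal (log2, x axis) of each of the 11 probe sets of the caveolar genes in luminal Venus Low (grey squares) and luminal Venus High (green circles) cells, 1 array each, with the floor (dotted line) and a signal of 100 (dashed line). Only 1 probe set each of Cav1, Cav2 and Cavin1 passed a signal of 100, and 4 probe sets lay at the floor in both populations.

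Among the coat genes, Cavin1 read 8.07 (a signal of 269.5) in Venus High cells against 6.84 (114) in Venus Low cells on probe set 1424130_a_at. That is a log2 difference of 1.24, or 2.36-fold, which is 2.17 smaller than the Cav1 difference and 1.18 smaller than the Cav2 difference. As no row analysed here was lower in Venus High, the direction it shares with Cav1 and Cav2 tells nothing. The other Cavin1 probe sets, 1421431_at and 1453891_at, lay at the floor on both arrays, so Cavin1 also rests on 1 of its 3 probe sets.

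Ehd2, the ATPase of the caveolar neck, had 4 probe sets and none reached a signal of 100. The brightest, 1424157_at, read 6.29 (78.5) in Venus High cells against 6.25 (76.1) in Venus Low cells, a difference of 0.04. Probe set 1435785_at read 6.18 (72.6) and 5.54 (46.6), a difference of 0.64. Probe set 1459823_at read 5.75 (53.8) and 5.49 (44.8), a difference of 0.26, and 1424158_at lay at the floor on both arrays. The 3 Ehd2 probe sets above the floor were thus dim in both populations and gave differences from near 0 to 0.64. The plot of signals by probe set shows the green and grey points far apart for Cav1 and for the brighter Cav2 probe set, and closer together for every Ehd2 probe set, for the dimmer Cav2 probe set and for Cav3, which lay at the floor.

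To place these values among all genes, a gene was taken by its brightest probe set, was counted as measured where its higher signal reached 100, and was called higher where the log2 difference was at least 2 (4-fold). By this rule 3 of the 5 caveolar genes in the table were measured, Cav1, Cav2 and Cavin1, and 2 were called, Cav1 and Cav2. Over all genes, 330 of 3847 measured genes were called (8.58%). All 3 caveolar genes were above 100 on both arrays, and among the 3034 genes for which that was so, 79 were called (2.60%). By probe set, 2 of the 3 measured caveolar probe sets were called, against 463 of 5370 over the table (8.62%). Since the list was chosen with the Cav1 and Cav2 differences known, nothing is read from these shares.

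The median difference of the 3 measured caveolar genes was 2.41, against 0.46 over all 3847 measured genes. That 2.41 is the Cav2 value itself, and the list was chosen with it known, so nothing is read from this contrast. A difference at least as large as that of Cav1 was found in 149 of the 3847 genes (3.87%), one as large as that of Cav2 in 252 (6.55%), and one as large as that of Cavin1 in 608 (15.8%). These ranks and the median of 0.46 are over rows that held no gene lower in Venus High, and would differ if such genes were counted. The differences of Cav1 and Cav2 were below that of the progesterone receptor gene Pgr, which read 11.93 in Venus High cells against 5.05 in Venus Low cells, and that of Cav1 was above and that of Cav2 below the difference of the estrogen receptor gene Esr1 (10.62 and 7.64, a difference of 2.98). Only differences can be ranked between genes, as the signals of different probe sets are not on a common scale.

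**Figure D2:**
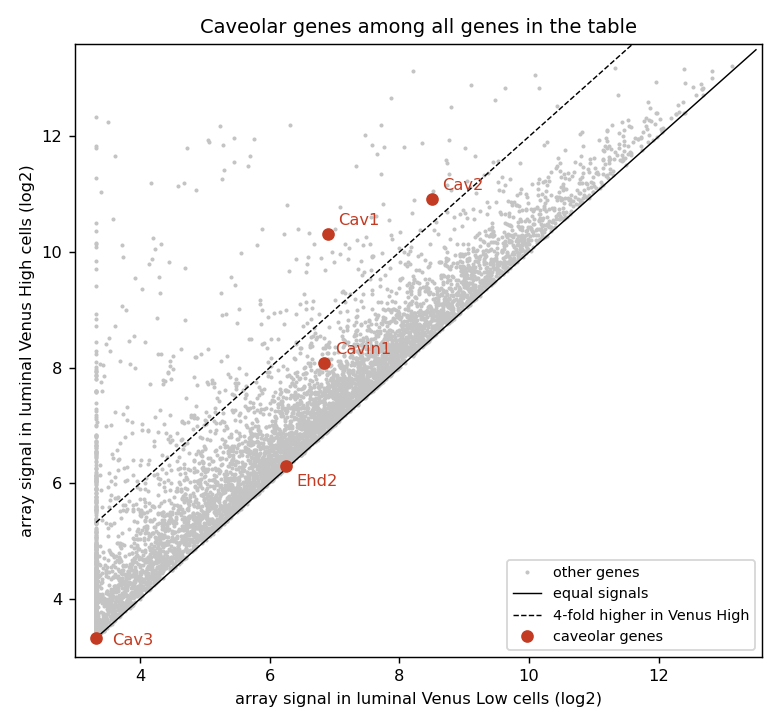
Array signal (log2) of all 13869 genes in luminal Venus Low (x axis) and luminal Venus High (y axis) cells, by each gene's brightest probe set, with the caveolar genes in red, equal signals as a solid line and a 4-fold difference as a dashed line. Cav1 (6.90, 10.30) and Cav2 (8.50, 10.91) lie above the dashed line, Cavin1 (6.84, 8.07) between the lines, Ehd2 (6.25, 6.29) on the solid line and Cav3 at the floor.

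The caveolar values are also given relative to the general level of each array. Among probe sets that reached 100, the median was 8.21 on the Venus High and 7.55 on the Venus Low array, 0.66 apart. As the rows analysed here held no probe set lower in Venus High, a gap between the medians would also follow from which rows they are, and this cannot be told apart from a difference in scale between the arrays. With each array centred on that median, Cav1 differed by 2.75 and Cav2 by 1.75, so Cav1 stayed above and Cav2 went below the 4-fold line. Cavin1 then differed by 0.58, and Ehd2, at -0.62, changed sign. Quantile normalization gave 2.72 for Cav1, 1.75 for Cav2, 0.57 for Cavin1 and -0.69 for Ehd2. Median centring takes the same amount from every difference, so it could not change the order Cav1, Cav2, Cavin1, Ehd2. Quantile normalization also kept this order. Other rows of the plot of processing choices did not keep it. Without _x_at, _s_at and _a_at probe sets Cavin1 (0) was below Ehd2 (0.04). By the median over probe sets Cavin1 (0) was again below Ehd2 (0.45).

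**Figure D3:**
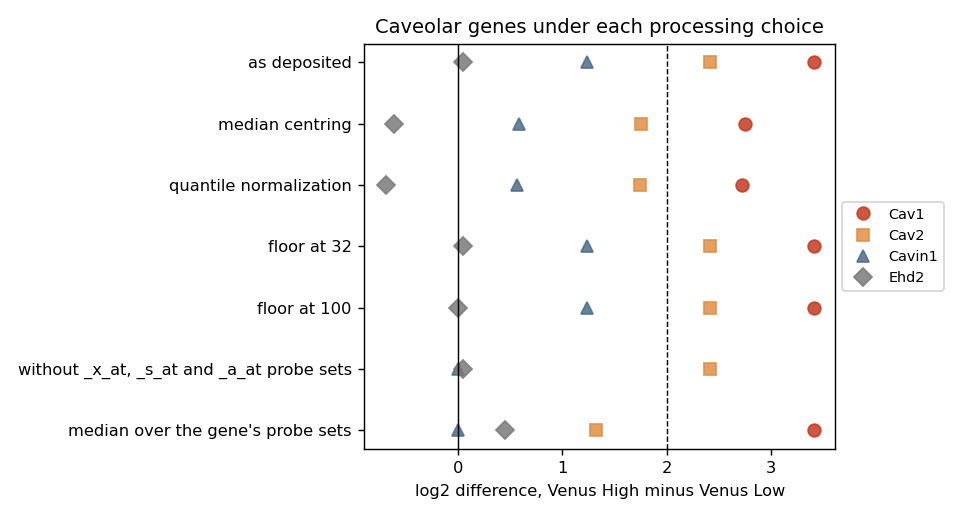
Log2 difference of luminal Venus High over luminal Venus Low cells (x axis) of Cav1, Cav2, Cavin1 and Ehd2 under each way of processing the deposited signals (rows), with 0 as a solid and 4-fold as a dashed line. Cav1 lies at 2.72 or above wherever it has a value, Cav2 is between 1.32 and 2.41, and Cavin1 is at 0 where its brightest probe set is left out or the median of its 3 probe sets is taken.

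Cav1 has no point in the plot for the setting that drops _x_at, _s_at and _a_at probe sets, since its only probe set is of the last type, in which probes can match several transcripts of the same gene. Leaving these probe sets out also takes away the only Cavin1 probe set above the floor.

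The genes whose 2 signals lay nearest to those of Cav1, by the Euclidean distance between their log2 values over the 2 arrays, were Gcnt2 at 0.05 (10.35 in Venus High, 6.92 in Venus Low), Mapre2 at 0.15 (10.39 and 7.01) and Gclc at 0.26 (10.15 and 6.69). Gcnt2 encodes a glycosyltransferase, Mapre2 a microtubule end-binding protein and Gclc the catalytic subunit of the first enzyme of glutathione synthesis. Nearest to Cav2 were Sh3d19 at 0.15 (11.06 and 8.52), Psmb8, an immunoproteasome subunit, at 0.27 (10.90 and 8.23), and Sdc1, the heparan sulfate proteoglycan syndecan-1, at 0.32 (10.70 and 8.73). This likeness rests on 2 numbers per gene and on signal levels that depend on each probe set, so it describes these probe sets and does not rank the genes' RNA levels.

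Since Cav1 and Cav2 are neighbours, the genes on either side of them were read in chromosome order. Tes, which encodes a focal adhesion protein and lies next to Cav2, read 9.52 in Venus High cells against 8.22 in Venus Low cells, a difference of 1.30. Mdfic, which encodes a protein with a MyoD family inhibitor domain, read 7.30 and 6.58, a difference of 0.72. Foxp2, Tfec, Wnt2 and Asz1 lay at the floor on both arrays, and Met, Capza2 and St7, on the Cav1 side, were not analysed here. The genes of this stretch with a level above the floor were Mdfic, Tes, Cav2 and Cav1, and Mdfic and Tes were below 4-fold. Over all measured genes 8.58% were called. Cav1 and Cav2 were chosen with their differences known, so nothing is read from their being the only ones past 4-fold here.

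**Figure D4:**
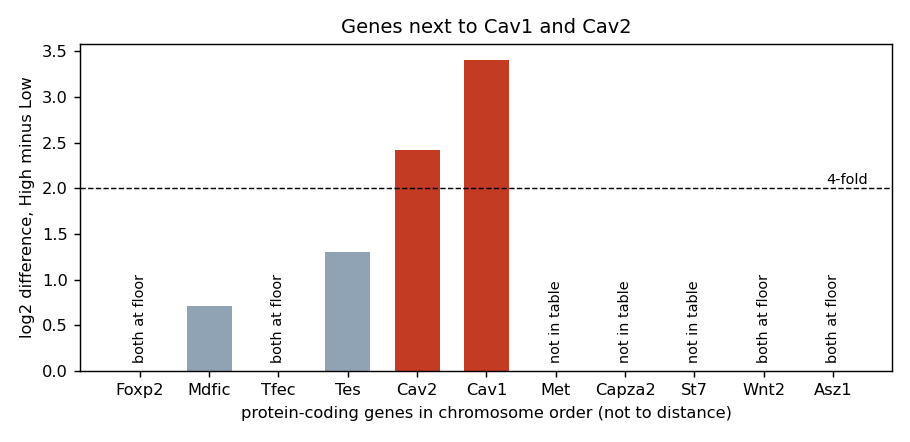
Log2 difference of luminal Venus High over luminal Venus Low cells (y axis) of the protein-coding genes around Cav1 and Cav2 in chromosome order (x axis, not to distance), with 4-fold as a dashed line. The caveolins (red) stand at 2.41 and 3.41, Tes at 1.30 and Mdfic at 0.72, and the other genes lay at the floor in both populations or were not in the table.

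Around Cavin1, the neighbour Stat5a, a transcription factor of prolactin signalling, read 9.34 in Venus High cells against 8.30 in Venus Low cells, a difference of 1.04, near the 1.24 of Cavin1. Naglu, a lysosomal enzyme gene, read 6.34 and 5.42, under a signal of 100 on both arrays, Atp6v0a1 lay at the floor, and Stat3 and Stat5b were not analysed here.

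Other genes that shape the caveolar neck or bend membranes were then read from a list of 13. Of these, the table held 10, of which 5 were measured and 0 were called, with a median difference of 0.53. The share called over all measured genes was 8.58%, so 0 called among 5 does not set this list apart. Pacsin3, a relative of the unmeasured Pacsin2, read 8.54 in Venus High cells against 7.81 in Venus Low cells, a difference of 0.73. Ehd1, a relative of Ehd2, read 9.36 and 9.23, a difference of 0.13. Dnm2, the dynamin that cuts membrane necks, read 6.71 and 6.17, a difference of 0.53. The largest difference among the 5 measured genes, 1.06, belonged to the sorting nexin Snx33 (6.83 and 5.77), and Snx9 (6.87 and 6.57) gave 0.29. Dnm1 had a larger difference, 1.52 (5.54 and 4.02), but was under a signal of 100 on both arrays and so not measured. Cavin4, the muscle cavin, lay at the floor in both populations, as did Pacsin1, Dnm3 and Bin1.

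Of 12 genes whose proteins are known to bind or signal with caveolin-1, 9 were in the table and only 2 were measured. These were Src, the kinase that phosphorylates caveolin-1 (6.85 in Venus High, 6.66 in Venus Low, a difference of 0.19), and Insr, the insulin receptor (7.56 and 7.27, a difference of 0.29). Egfr read 3.78 in Venus High and lay at the floor in Venus Low cells, and Yes1 read 3.96 and 3.66, so both were dim. The scavenger receptor gene Cd36 and Abl1, Ror1, Gnaq and Tgfbr1 lay at the floor on both arrays.

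The flotillins, which scaffold membrane domains separate from caveolae, had bright signals and small differences. Flot1 read 9.24 in Venus High cells against 8.83 in Venus Low cells, a difference of 0.41, and Flot2 read 8.81 and 8.80, a difference of 0.01. Over the list of 11 flotillin, stomatin and prohibitin relatives, 7 were in the table, 5 were measured and 0 were called, with a median of 0.29. With 8.58% called over all measured genes, 0 called among 5 does not set this list apart. Both flotillins were thus measured on both arrays, with differences below the median of 0.46 over all measured genes. Cav1 and Cav2 were chosen with their differences known, so nothing is read from the smaller differences of the flotillins.

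Of 17 genes of clathrin-coated pits, the other main route of uptake, 10 were in the table, 5 were measured and 0 were called, with a median of 0.70. The largest difference among the measured 5 was 1.33 for Epn2, which encodes the adaptor epsin-2 (7.70 in Venus High, 6.37 in Venus Low). The scaffold gene Eps15 gave 0.90 (9.55 and 8.65) and Cltb, a clathrin light chain, gave 0.70 (9.28 and 8.58). Caveolae also need cholesterol, and of 13 cholesterol genes 6 were in the table, all 6 were measured and 0 were called, with a median of 0.82. With 8.58% called over all measured genes, 0 called sets neither of these short lists apart. Fdft1, which encodes squalene synthase, gave 1.67 (10.15 and 8.48), Sqle, squalene epoxidase, gave 1.26 (9.01 and 7.75), and the cholesterol exporter gene Abcg1 gave 1.23 (7.96 and 6.72). The list medians of 0.53, 0.29 and the partners' 0.24 were smaller than the 0.66 between the array medians, so they fall below 0 with the arrays centred, while the medians of the clathrin and cholesterol lists and of the caveolar genes stay above 0.

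**Figure D5:**
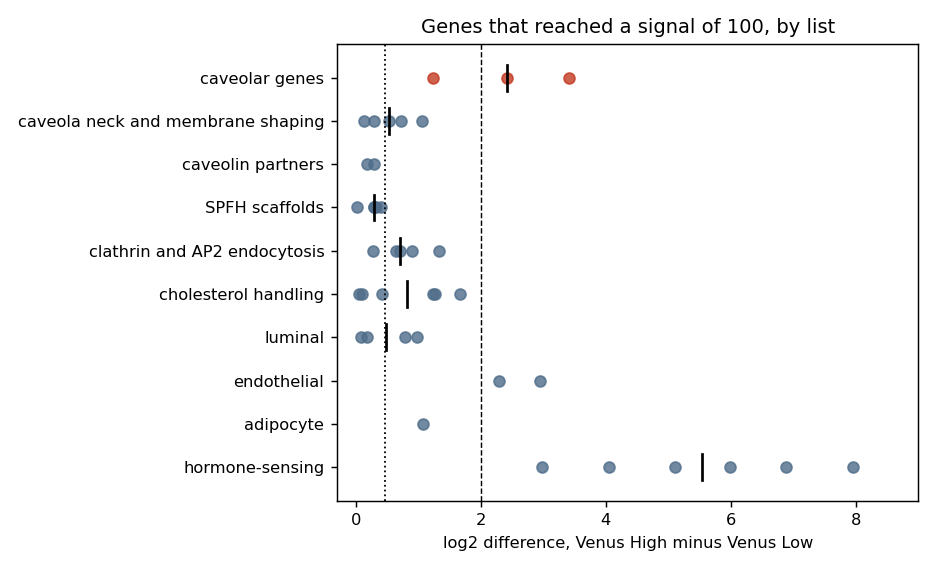
Log2 difference of luminal Venus High over luminal Venus Low cells (x axis) of each gene that reached a signal of 100, by list (rows), with the median of lists of 3 or more genes as a black bar, the median of all genes (0.46) as a dotted line and 4-fold as a dashed line. The median of the caveolar genes (2.41) is the Cav2 value itself, which was known when the list was chosen. The other medians include those of the membrane-shaping (0.53), clathrin (0.70) and cholesterol (0.82) genes and of the hormone-sensing markers (5.54). Single genes overlap between lists, as Cavin1 (1.24) lies left of Fdft1 (1.67) and Cav1 (3.41) right of Esr1 (2.98).

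The plot by list also shows the markers of cell types that the gates could hold. Of 8 markers of hormone-sensing luminal cells, 6 were in the table, and Ly6a and Prlr had no probe set annotated to them alone. All 6 were measured and called, against 8.58% of all measured genes, in rows that held no gene lower in Venus High. Their median difference was 5.54, and among them were Tbx3 (5.10), Pgr (6.88) and Foxa1 (4.05). Venus reports the Tbx3 promoter, so the Tbx3 difference follows from the sort. The summed signal of the 6 markers was 15242 in Venus High cells against 523 in Venus Low cells. Cav1 had a smaller difference than 5 of the 6 markers, and Cav2 a smaller one than all 6.

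Endothelial cells and adipocytes, both rich in caveolae, were read in the same way. Of 11 endothelial markers, 6 were in the table and 2 were measured, Vwf, the von Willebrand factor gene (7.26 in Venus High, 4.31 in Venus Low, a difference of 2.95), and Eng, a co-receptor of TGF-beta signalling (7.13 and 4.83, a difference of 2.30), and both were called, though 1 of them lost the call under median centring or quantile normalization and both lost it with a signal minimum of 200. The share called over all measured genes was 8.58%. Kdr, a VEGF receptor gene, read 3.78 in Venus High and lay at the floor in Venus Low cells, and Cdh5, Tek and Tie1, which define endothelium, lay at the floor in both. Summed over the 6 genes, with each gene at the floor counted as 10, the endothelial signal was 337 in Venus High cells against 88.3 in Venus Low cells. As no row analysed here was lower in Venus High, this sum could only be equal or higher in those cells. The part of the endothelial signal in the caveolin difference was not tested.

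Of 9 adipocyte markers, 6 were in the table and only Lpl, the lipoprotein lipase gene, was above the floor (8.82 and 7.75, a difference of 1.07), with a summed signal of 502 and 265. Adipoq, Fabp4, Lep, Cidec and Retn lay at the floor in both populations. The 5 pericyte markers in the table summed to 54.7 in Venus High cells against 50 in Venus Low cells, with 4 at the floor on both arrays and all 5 at the floor in Venus Low cells, so that the second sum is the floor itself, and the 7 fibroblast markers summed to 132.8 and 92.5, with Dcn the brightest at 6.01 and 4.89. All 6 basal myoepithelial and all 5 immune markers in the table lay at the floor in both populations. The part of the adipocyte, fibroblast and pericyte signals in the caveolar differences was not tested.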

How the data were processed

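Each luminal population was measured on 1 array. Per the submitters' processing notes signals came from MAS5, and by the study's methods the authors transformed them to log2 before normalization and centring in BRB-ArrayTools. The deposited log2 values were used as given. No genome build is given for the array values, and the promoter windows are on build GRCm38.p6. Whether the scale of the arrays is common could not be settled, since rows lower in Venus High were not analysed here.

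Probe sets were named from the platform annotation: 22223 had 1 symbol, 602 several and 6513 were not listed, and those without exactly 1 symbol were left out of gene counts. A gene was taken by its brightest probe set over both arrays. Named genes were the members, the 3 nearest genes to each called member, chromosome neighbours and genes of 13 lists (135 genes). The members and lists were chosen with earlier results of these data known. Values were computed in Python 3.11.15 with pandas 2.3.3 and numpy 2.4.6 and plotted with matplotlib 3.10.9, and the scripts were tested on simulated data. The alternatives were other scalings, floors, signal minimums, probe set rules and fold thresholds. With 1 array per population no test was run, and the number of arrays limits the precision.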

Additional observations from a re-analysis of the deposited data

How the results depend on the processing

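Across 11 alternatives, the 2 caveolar genes past 4-fold became 1 under median centring, under quantile normalization, with the median over a gene's probe sets and at an 8-fold threshold, Cav1 in each case, and 1, Cav2, without _x_at, _s_at and _a_at probe sets, where Cav1 has no value. Caveolar probe sets past 4-fold went from 2 to 1 under median centring, quantile normalization, without those probe sets and at 8-fold. The median of the measured caveolar genes moved from 2.41 to 1.75 with either scaling and to 1.83 with a minimum of 50. It was 1.24 with no signal minimum or with a floor at 100. That floor raises Cav3 and Ehd2 to 100, so that all 5 genes count as measured. Cav2 was 1.32 and Cavin1 was 0 by the median over probe sets, and Ehd2 was 0.45. The 330 genes called over the table became 204 under median centring, 196 under quantile normalization, 300 and 170 with floors at 32 and 100, 274 without _x_at, _s_at and _a_at probe sets, 427, 245 and 451 with minimums of 50, 200 and none, 255 by the median over probe sets, and 831 and 183 at 2-fold and 8-fold. Genes called in the other lists went from 8 to 14 at 2-fold and to 5 at 8-fold. Of the 2 endothelial markers called, 0 remained with a floor at 100, a minimum of 200 or at 8-fold, and 1 under median centring, quantile normalization, without _x_at, _s_at and _a_at probe sets or by the median over probe sets.

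The data hold 1 array per population from 1 pool of 3 mice, so leaving out a replicate was not possible. No paired analysis was possible because each population has 1 sample and no test was run. Probe sets at the floor of 10, as for Cav3, 2 of 3 of Cavin1 and 1 of 4 of Ehd2, carry no measured level.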
